A study of Mus musculus with 16 samples.

Results

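The growth factors of the fibroblast (FGF), platelet-derived (PDGF), vascular endothelial (VEGF) and epidermal (EGF) growth factor families, with their receptors and with hepatocyte growth factor and its receptor, were followed in cultured mouse aortic smooth muscle cells. The members were chosen by gene symbol: 42 genes of the 20581 in the deposited table, made up of 16 FGF ligands, 4 FGF receptors, 4 PDGF ligands, 1 PDGF receptor, 5 VEGF ligands, 6 EGF ligands, 4 EGF receptors, Hgf and Met. The class of FGF ligands was set by symbol and takes in genes such as Fgf11, Fgf12 and Fgf13, whose products are not secreted. Areg, a further EGF ligand, was not analysed here. Of the 42 members, 34 passed the expression filter (at least 1 CPM in at least 4 libraries, where CPM are counts per 1000000 counts of a library) and were tested together with the other genes, 14217 in all.

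Primary smooth muscle cells came from the aortas of male C57BL/6J mice of 2 genotypes. KO mice (RBC.ARG1-KO) carried an erythropoietin receptor Cre transgene (ErCre) and floxed alleles of Arg1, the gene of the urea cycle enzyme arginase 1, and WT mice (RBC.ARG1-WT) were their littermates. Whether the WT littermates carried the Cre or a floxed allele, and the age of the animals, is not stated in what was used here. The Cre acts in the red blood cell lineage, so the smooth muscle cells themselves were not the target of the deletion. Accordingly Arg1 does not check the genotype labels: its counts were 1 to 4 in KO DIAM libraries, 0 to 9 in WT DIAM libraries, 2 to 49 in KO DMEM libraries and 3 to 4 in WT DMEM libraries. Each genotype was cultured in DIAM, which is DMEM with 50 µg/mL L-ascorbic acid, 1 µM insulin and 0.1 µM dexamethasone (a glucocorticoid) given for 10 days from 80% confluency to drive lipid accumulation, or was kept in DMEM with 10% fetal bovine serum. Whether DIAM held serum as well is not stated in what was used here, so serum and the 3 added agents cannot be told apart as sources of a difference between the media. There were 4 libraries in each of the 4 groups (KO DIAM, WT DIAM, KO DMEM and WT DMEM), described as biological replicates, and p-values measure the spread between these libraries.

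Depth was even, with 37221192 to 47626331 estimated counts a library. The smooth muscle marker list (10 of 10 genes measured) summed to 1294 to 2229 CPM in KO DIAM libraries, 1146 to 1860 in WT DIAM libraries, 2573 to 4205 in KO DMEM libraries and 3151 to 3972 in WT DMEM libraries. Acta2 and Tagln make up most of that sum; Acta2, Cnn1, Smtn and Tagln were lower in DIAM in both genotypes, Myocd was higher in both and Lmod1 in KO cells, and the list's median log2 fold change was -0.00 in KO cells and -0.13 in WT cells. An adipocyte list (7 of 8 genes measured) summed to 3701 to 5349 in KO DIAM libraries, 2310 to 3875 in WT DIAM libraries, 232 to 404 in KO DMEM libraries and 257 to 370 in WT DMEM libraries. A fibroblast or adventitial list (12 of 12 genes measured) summed to 17043 to 19353 in KO DIAM, 12073 to 15768 in WT DIAM, 3129 to 3429 in KO DMEM and 3116 to 3426 in WT DMEM. Gsn alone reached up to 16336 CPM in a library. In both genotypes 8 of its genes were called higher in DIAM, while Col14a1, Lum and Mfap5 were lower in both and Tcf21 in KO cells. A Schwann or glial list (10 of 10 genes measured, 7 of them tested, none at 0 in any library) differed more between libraries of one group. It summed to 47.9, 105, 157 and 190 CPM in KO DIAM libraries 1 to 4, 473, 715, 305 and 293 in WT DIAM libraries, 29.4, 133, 33.5 and 49.3 in KO DMEM libraries, and 91.8, 30.2, 64.4 and 49.7 in WT DMEM libraries. Ngfr carried much of the sum, with 383 CPM of the 715 in WT DIAM library 2, while S100b was lower in DIAM in both genotypes. KO DIAM library 1 was low and KO DMEM library 2 high for their groups on this list. The same held for a leukocyte list (9 of 12 genes measured). KO DIAM library 1 summed to 1251 CPM, against 1574 to 1639, and KO DMEM library 2 to 2586, against 1150 to 1830. On an endothelial list KO DIAM library 1 was lowest (83.9 CPM against 120 to 152). KO DMEM library 2 was not high on it (72.2 CPM against 72.6 to 97.7). Where leaving these libraries out changed the call of a member, the values without them are given. Leaving both out together was chosen after the data were seen. In bulk RNA, fewer cells of a type and less RNA per cell cannot be told apart.

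The families share one plan. A secreted or membrane-bound ligand brings receptor tyrosine kinases together at the cell surface, and the receptors then pass a signal through adaptor proteins to the RAS and ERK cascade. In the artery wall PDGF drives migration and growth of smooth muscle cells, FGF ligands act with heparan sulfate on mesenchymal cells, VEGF ligands act mainly on endothelial and lymphatic cells, and EGF family ligands are shed from the surface of the cell that makes them. Dexamethasone acts through the glucocorticoid receptor, and ascorbic acid is a cofactor of collagen synthesis.

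The promoters of the members that moved furthest are shown first, as the stretches of DNA upstream of the genes whose levels are reported below. They are the 3 members with the largest mean rise and the 3 with the largest mean fall in DIAM over both genotypes, among those called in the same direction in both and present in the promoter table. Each sequence is the 250 bases before the gene's RefSeq start on GRCm38.p6, read 5′ to 3′ on the gene's strand, and capitals mark GC boxes (GGGCGG on either strand, the core bound by SP1) and TATA boxes (TATAAA on either strand). The deposited counts were made on GRCm39, so these coordinates belong to the promoters alone.
Tgfa, chr6:86194972-86195221, plus strand: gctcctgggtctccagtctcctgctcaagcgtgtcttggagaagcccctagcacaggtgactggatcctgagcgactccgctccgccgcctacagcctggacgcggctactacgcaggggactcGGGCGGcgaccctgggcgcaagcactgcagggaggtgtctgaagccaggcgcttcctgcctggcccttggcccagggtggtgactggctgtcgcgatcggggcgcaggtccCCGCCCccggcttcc
Vegfc, chr8:54077282-54077531, plus strand: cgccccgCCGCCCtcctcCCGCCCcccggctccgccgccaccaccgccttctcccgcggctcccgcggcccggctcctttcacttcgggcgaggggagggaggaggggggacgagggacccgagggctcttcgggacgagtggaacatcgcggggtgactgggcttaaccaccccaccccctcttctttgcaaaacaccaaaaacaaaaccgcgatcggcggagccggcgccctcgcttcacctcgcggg
Egfr, chr11:16751953-16752202, plus strand: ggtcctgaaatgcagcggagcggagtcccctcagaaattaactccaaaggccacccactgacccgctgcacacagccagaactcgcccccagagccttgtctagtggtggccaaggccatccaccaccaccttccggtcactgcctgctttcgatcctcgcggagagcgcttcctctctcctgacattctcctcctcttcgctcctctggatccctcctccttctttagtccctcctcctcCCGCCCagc
Fgf9, chr14:58072436-58072685, plus strand: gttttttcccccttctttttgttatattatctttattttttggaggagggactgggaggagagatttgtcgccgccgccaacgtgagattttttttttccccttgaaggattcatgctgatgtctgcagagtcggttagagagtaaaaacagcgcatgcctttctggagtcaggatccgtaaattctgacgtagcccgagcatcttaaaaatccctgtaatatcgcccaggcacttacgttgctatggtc
Pdgfd, chr9:6168236-6168485, plus strand: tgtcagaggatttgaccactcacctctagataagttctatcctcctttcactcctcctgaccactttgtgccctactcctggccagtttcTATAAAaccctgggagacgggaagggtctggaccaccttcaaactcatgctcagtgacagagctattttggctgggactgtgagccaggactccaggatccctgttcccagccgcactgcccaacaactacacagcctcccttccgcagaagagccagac
Fgf10, chr13:118714449-118714698, plus strand: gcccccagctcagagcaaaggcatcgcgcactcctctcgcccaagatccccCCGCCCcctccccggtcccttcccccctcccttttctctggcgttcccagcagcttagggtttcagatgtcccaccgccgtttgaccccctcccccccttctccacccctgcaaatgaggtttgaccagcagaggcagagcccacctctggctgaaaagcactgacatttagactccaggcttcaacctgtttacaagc
Tgfa and Vegfc each held 2 GC boxes, Egfr and Fgf10 held 1 each, and Fgf9 and Pdgfd held none. Pdgfd was the only one of these 6 with a TATA box. A promoter was found for 31 of the 42 members, giving 42 windows, since some genes have several starts. Repeated windows were removed from those over all genes but not from those of the members. A GC box lay in 25 of those 42 windows, against 32.7% of 32817 windows over all genes, and a TATA box lay in 3, against 12.4%. The short motif of the glucocorticoid receptor (AGAACA, either strand) was present in 1 member window, at Fgf13, against 16.1% of all windows. The AP-1 site TGANTCA, bound by FOS and JUN proteins, lay in 3 member windows (Met, Fgf12 and Fgf13), against 6.75% of all windows. A match is a description of the letters, and no match says only that these letters are not in the window.

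Set per kilobase of exon, so that genes of different length can be compared, the leading ligand in every group was Vegfd, a VEGF ligand of lymphatic endothelium. Its level was 557 CPM per kilobase in KO DIAM, 441 in WT DIAM, 255 in KO DMEM and 249 in WT DMEM (group means, n = 4; exon lengths from GENCODE M21 on GRCm38). These levels take the deposited values as read counts not yet scaled by gene length, which no source used here states; if they were so scaled, length would be corrected for again. Pdgfrb, the receptor that marks mural and smooth muscle cells, led the receptors with 103 per kilobase in KO DIAM, 116 in WT DIAM, 182 in KO DMEM and 198 in WT DMEM. Fgfr1, the main FGF receptor of mesenchymal cells, stood at 60.2 in KO DIAM, 54.5 in WT DIAM, 45.5 in KO DMEM and 44.9 in WT DMEM. Fgfrl1, an FGF receptor that lacks the kinase part, stood at 55.6 in KO DIAM, 42.6 in WT DIAM, 40.9 in KO DMEM and 47.1 in WT DMEM. The EGF receptor gene Egfr lay below Fgfrl1 in every group. Egfr reached 44.5 in KO DIAM and 38.4 in WT DIAM, with 17.2 in KO DMEM and 16.6 in WT DMEM. Vegfd and Pdgfrb thus stood at the head of their lists in both media, Vegfd higher in DIAM and Pdgfrb higher in DMEM.

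**Figure D1:**
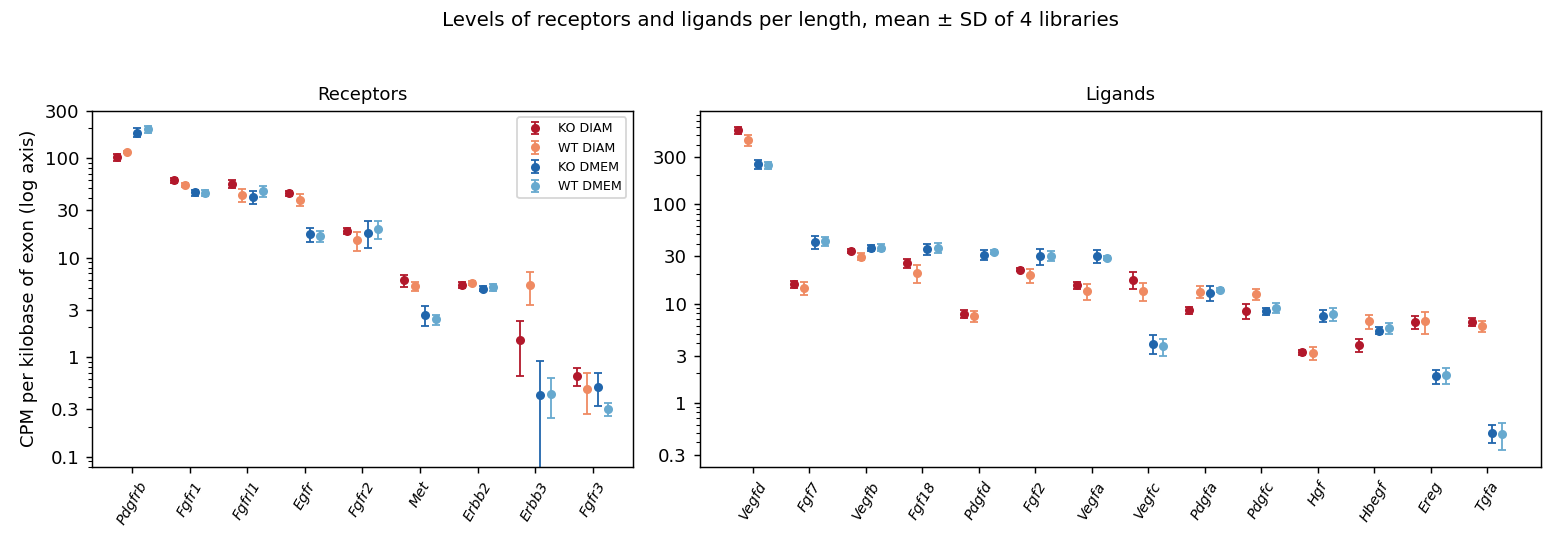
Levels of the tested receptors and of a part of the tested ligands per kilobase of exon (TMM-scaled CPM per kilobase, log axis) in KO DIAM, WT DIAM, KO DMEM and WT DMEM libraries, as mean ± SD of 4 libraries. Vegfd stands highest among the ligands, at 557 per kilobase in KO DIAM and 249 in WT DMEM, and Pdgfrb highest among the receptors.

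All values that follow are CPM after TMM scaling, listed by library number 1 to 4, and log2 fold changes are DIAM over DMEM, given with their standard error (SE) and the Benjamini-Hochberg adjusted p of edgeR's quasi-likelihood test over 14217 genes. A gene is called where that adjusted p is under 0.05. Of the 34 tested members, 24 were called between DIAM and DMEM in KO cells (70.6%), 11 higher and 13 lower, where 60.7% of all tested genes were called, 29.8% higher and 30.8% lower. In WT cells 26 members were called (76.5%), 13 higher and 13 lower, where 55.1% of all tested genes were called. DIAM and DMEM libraries did not overlap for 21 of the 34 members in KO cells, where 55.1% of all genes had no overlap. In WT cells they did not overlap for 25 members, where 49.0% of all genes had none. A lack of overlap between media was thus common among all genes. Members with a called change of at least 1 on the log2 scale numbered 14 in KO cells (8 higher, 6 lower), against 17.1% of all genes, and 17 in WT cells (9 higher, 8 lower), against 15.1% of all genes. The median size of the members' log2 fold change was 0.86 in KO cells and 1.02 in WT cells, where that of all genes was 0.34 in KO cells and 0.29 in WT cells. Under upper-quartile scaling the split of all called genes moved to 3403 higher and 5608 lower in KO cells, against 4243 and 4380 under TMM, the median over all genes was -0.12 against -0.02 on the log2 scale, and the members' split moved to 11 higher and 14 lower. In WT cells that scaling called 3398 genes higher and 4655 lower, against 3929 and 3910 under TMM, while the members stayed at 13 higher and 13 lower.

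In both genotypes 9 members rose in DIAM (Egfr, Erbb3, Ereg, Fgfr1, Met, Pgf, Tgfa, Vegfc and Vegfd) and 11 fell (Fgf10, Fgf11, Fgf18, Fgf2, Fgf7, Fgf9, Hgf, Nrg1, Pdgfd, Pdgfrb and Vegfa). Called in KO cells alone were 4 (Fgf13, Fgfrl1, Hbegf and Pdgfa), and called in WT cells alone were 6 (Btc, Fgf12, Fgf5, Pdgfb, Pdgfc and Vegfb). No member was called in opposite directions in the fit on all libraries. Erbb2, Fgf1, Fgfr2 and Fgfr3 were called in neither genotype. Of all tested genes 60.7% were called in KO cells and 55.1% in WT cells. How many of all genes were called the same way in both genotypes was not counted. These member counts therefore have no share over all genes beside them. The test of whether the response differed between genotypes is given further on, and a call in one genotype alone does not show such a difference.

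**Figure D2:**
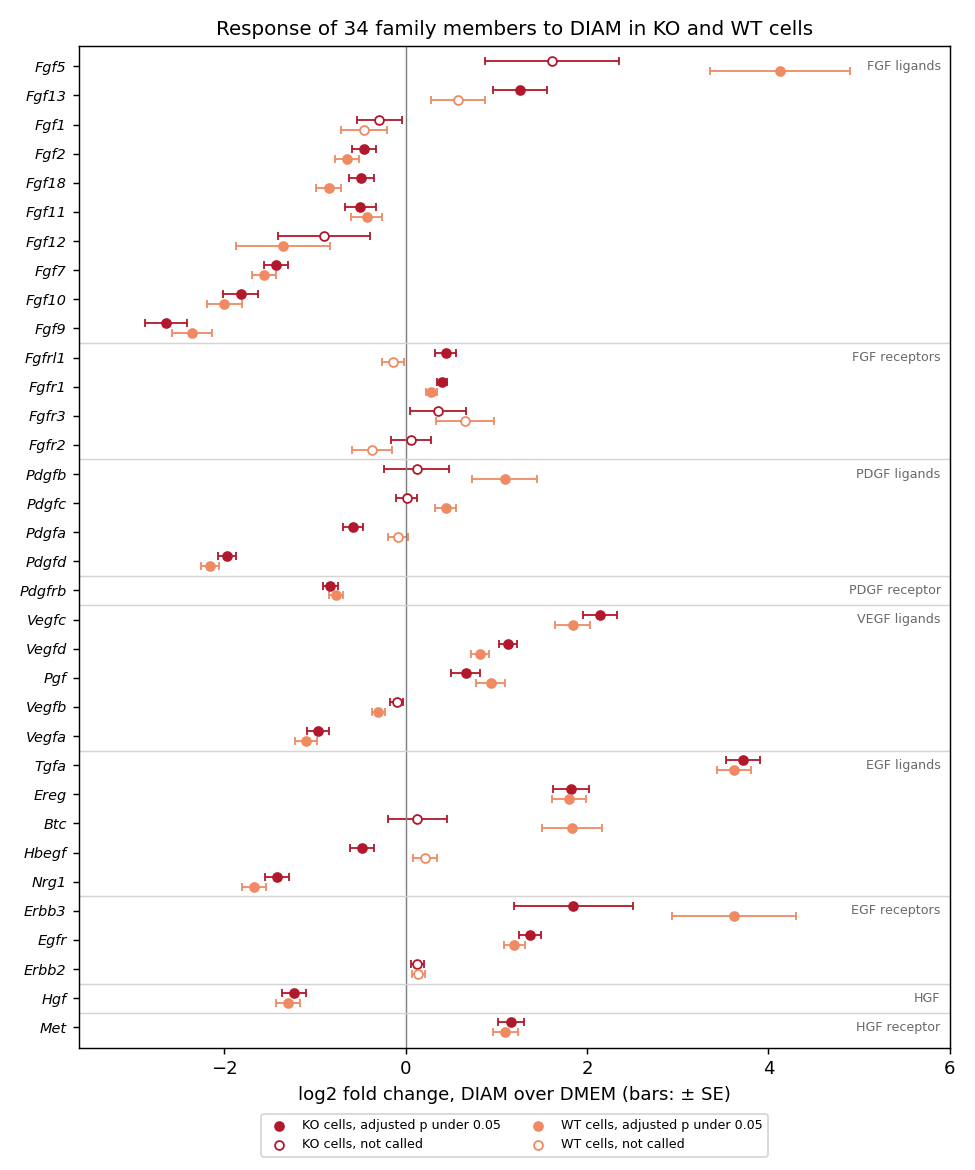
Log2 fold change of each of the 34 tested members between DIAM and DMEM (points, bars ± SE) in KO and WT cells, grouped by family; filled points have an adjusted p under 0.05. Tgfa lies at 3.72 in KO cells and 3.62 in WT cells, Fgf9 at -2.64 and -2.36, and Erbb2 near 0 in both.

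Among the EGF family ligands, Tgfa (transforming growth factor alpha, a ligand of EGFR) showed the largest called rise of all members in KO cells. It had 29.1, 32.1, 31.5 and 25.9 CPM in KO DIAM libraries, against 2.72, 1.76, 1.98 and 2.56 CPM in KO DMEM libraries. WT cells gave 27.1, 22.2, 30.0 and 27.4 CPM in DIAM and 1.60, 2.92, 1.61 and 2.60 CPM in DMEM. Every DIAM library lay far above every DMEM library, at 13.1-fold in KO cells (3.72 ± 0.19 on the log2 scale, adjusted p = 1.19e-10) and 12.3-fold in WT cells (3.62 ± 0.19 on the log2 scale, adjusted p = 1.90e-10). Ereg, epiregulin, which binds EGFR and ERBB4, moved the same way. Its KO libraries held 28.2, 28.1, 30.1 and 21.4 CPM in DIAM and 8.54, 8.04, 8.03 and 5.91 CPM in DMEM, and its WT libraries 27.5, 17.3, 32.8 and 31.5 CPM in DIAM and 8.98, 5.66, 8.42 and 8.26 CPM in DMEM. The groups did not overlap, and the rise was 1.82 ± 0.20 in KO cells (adjusted p = 9.23e-07) and 1.80 ± 0.19 in WT cells (adjusted p = 1.29e-06).

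Nrg1, neuregulin 1, a ligand of ERBB3 and ERBB4, fell in DIAM. KO cells had 6.47, 5.10, 3.97 and 6.96 CPM in DIAM, against 15.3, 15.3, 15.4 and 14.1 CPM in DMEM, and WT cells had 4.95, 4.31, 5.03 and 4.69 CPM in DIAM, against 15.1, 13.8, 15.5 and 15.9 CPM in DMEM. All 8 DIAM libraries lay below all 8 DMEM libraries, with log2 fold changes of -1.42 ± 0.13 in KO cells (adjusted p = 1.10e-07) and -1.67 ± 0.13 in WT cells (adjusted p = 2.32e-08). Hbegf, heparin-binding EGF-like growth factor, which is also made by vascular smooth muscle, had 7.22, 10.1, 9.09 and 10.1 CPM in KO DIAM libraries, against 13.4, 13.8, 12 and 11.7 CPM in KO DMEM libraries. The KO DIAM libraries were the lower ones, with a log2 fold change of -0.48 ± 0.13 (adjusted p = 0.00499). In WT cells it had 18.4, 16.5, 15.6 and 12.5 CPM in DIAM and 14.6, 11.2, 15 and 13.5 CPM in DMEM, ranges that overlapped, and was not called (0.21 ± 0.13, adjusted p = 0.176). Without WT DIAM library 4 it was called higher there (0.31, adjusted p = 0.0490).

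Btc, betacellulin, a ligand of EGFR and ERBB4, had 16.5, 25.6, 9.65 and 10.1 CPM in WT DIAM libraries, against 5.49, 3.25, 4.70 and 3.96 CPM in WT DMEM libraries. Each WT DIAM library exceeded each WT DMEM library, and the rise was 1.83 ± 0.33 (adjusted p = 0.000233). KO cells held 2.35, 4.67, 5.86 and 5.22 CPM in DIAM and 3.51, 5.92, 3.54 and 3.57 CPM in DMEM. There the groups overlapped and the gene was not called (0.13 ± 0.33, adjusted p = 0.753).

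Of the EGF family receptors, Egfr, which binds TGFA, epiregulin, betacellulin and HBEGF, rose in both genotypes. KO libraries held 447, 484, 496 and 519 CPM in DIAM, against 170, 206, 157 and 221 CPM in DMEM, and WT libraries 373, 380, 432 and 497 CPM in DIAM, against 157, 171, 200 and 202 CPM in DMEM. The lowest DIAM library exceeded the highest DMEM library in both, and the log2 fold change was 1.37 ± 0.12 in KO cells (adjusted p = 6.31e-08) and 1.2 ± 0.12 in WT cells (adjusted p = 3.31e-07). Erbb2, the co-receptor that has no ligand of its own, averaged 26.9 ± 1.84 CPM in KO DIAM, 28.1 ± 1.52 in WT DIAM, 24.6 ± 1.34 in KO DMEM and 25.5 ± 1.95 in WT DMEM (mean ± SD, n = 4). Its log2 fold change was 0.13 ± 0.07 in KO cells (adjusted p = 0.109) and 0.14 ± 0.07 in WT cells (adjusted p = 0.0896).

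Erbb3, a neuregulin receptor also carried by Schwann cells, spread widely between libraries. It had 2.07, 8.60, 11.8 and 13.7 CPM in KO DIAM libraries, against 0.838, 6.98, 1.22 and 1.05 CPM in KO DMEM libraries. WT libraries held 31.0, 49.1, 23.7 and 24.6 CPM in DIAM, against 3.59, 1.01, 3.01 and 2.75 CPM in DMEM. The WT groups lay far apart, while in KO cells DIAM library 1 fell below DMEM library 2. The change was 3.62 ± 0.68 in WT cells (adjusted p = 0.000374) and 1.85 ± 0.66 in KO cells (adjusted p = 0.0259). The KO call was lost when KO DIAM library 3 or 4 or KO DMEM library 1, 3 or 4 was left out (adjusted p = 0.0580 to 0.0726), and in the fit on the KO libraries alone (adjusted p = 0.0770). Without KO DMEM library 2 it became 3.12 (adjusted p = 0.000500), and without that library and KO DIAM library 1 together 3.45 (adjusted p = 1.33e-05). Those libraries held the highest DMEM and the lowest DIAM value of the KO cells, so leaving them out had to widen the difference. The Schwann or glial list moved with Erbb3 across libraries: its sum was 47.9 to 190 CPM in KO DIAM, 293 to 715 in WT DIAM, 29.4 to 133 in KO DMEM and 30.2 to 91.8 in WT DMEM, and its part in the result was not tested. Not every gene of the list followed: Mbp in KO DMEM was highest in library 4 (14 CPM), with 7.12 CPM in library 2, where Erbb3 was highest.

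**Figure D3:**
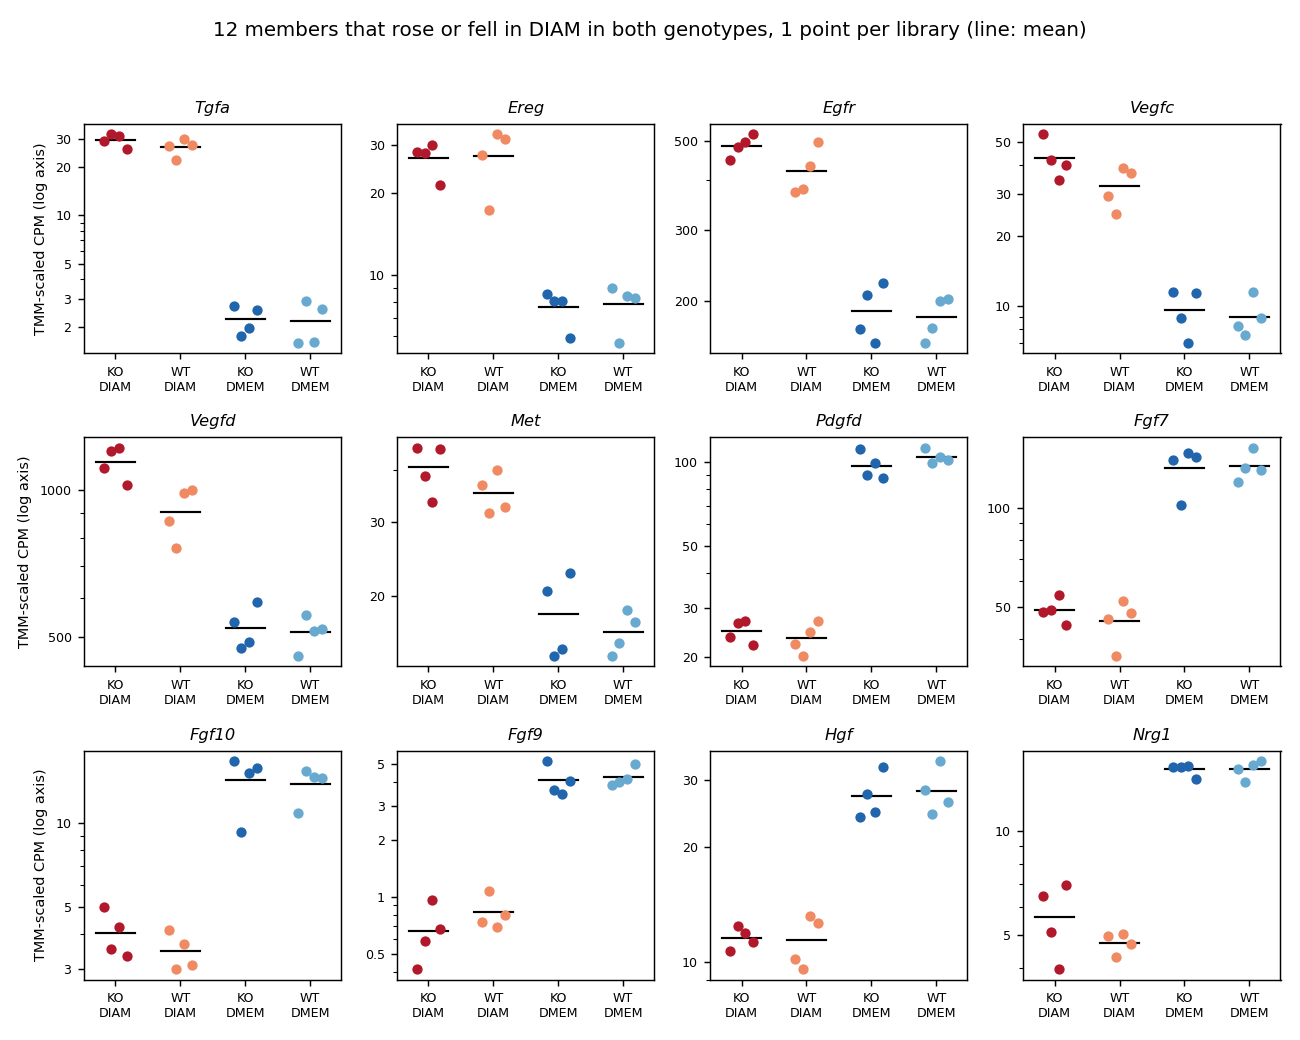
TMM-scaled CPM (log axis) of 12 members in each library of KO DIAM, WT DIAM, KO DMEM and WT DMEM cells; points are libraries and lines are group means. Tgfa lies between 25.9 and 32.1 CPM in KO DIAM and between 1.76 and 2.72 CPM in KO DMEM.

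The VEGF ligands split, with Vegfc, Vegfd and Pgf higher in DIAM and Vegfa lower. Vegfc, which drives lymphatic vessel growth, had 53.9, 41.8, 34.5 and 40.1 CPM in KO DIAM libraries, against 11.5, 8.89, 7.01 and 11.4 CPM in KO DMEM libraries. Its WT libraries held 29.6, 24.7, 38.8 and 36.9 CPM in DIAM, against 8.24, 7.54, 11.5 and 8.96 CPM in DMEM. No DIAM library reached down to a DMEM library, and the rise was 2.14 ± 0.19 in KO cells (adjusted p = 1.46e-07) and 1.84 ± 0.19 in WT cells (adjusted p = 9.31e-07). Vegfd, its close relative, had 1112, 1203, 1225 and 1028 CPM in KO DIAM libraries, against 537, 473, 487 and 589 CPM in KO DMEM libraries, and 864, 760, 986 and 1003 CPM in WT DIAM libraries, against 456, 554, 513 and 519 CPM in WT DMEM libraries. The media did not overlap in either genotype (1.13 ± 0.10 on the log2 scale, adjusted p = 5.13e-08 in KO cells; 0.82 ± 0.10 on the log2 scale, adjusted p = 2.36e-06 in WT cells).

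Vegfa, the main ligand for endothelial growth, had 60, 51.3, 55.4 and 49.8 CPM in KO DIAM libraries, against 91.1, 123, 115 and 95.5 CPM in KO DMEM libraries. In WT cells it had 44.5, 36.0, 56.5 and 51.6 CPM in DIAM, against 101, 97.2, 107 and 98.7 CPM in DMEM. All DIAM values lay below all DMEM values, a log2 fold change of -0.97 ± 0.12 in KO cells (adjusted p = 4.13e-06) and -1.10 ± 0.12 in WT cells (adjusted p = 1.41e-06). Pgf, placental growth factor, a ligand of the receptor FLT1, averaged 12.9 ± 1.80 CPM in KO DIAM, 17.0 ± 0.670 in WT DIAM, 8.15 ± 2.01 in KO DMEM and 8.85 ± 1.54 in WT DMEM (mean ± SD, n = 4). It rose by 0.66 ± 0.16 on the log2 scale in KO cells (adjusted p = 0.00178) and by 0.94 ± 0.16 in WT cells (adjusted p = 9.16e-05). Vegfb, another FLT1 ligand, averaged 43.6 ± 1.64 CPM in KO DIAM, 38.2 ± 3.0 in WT DIAM, 46.8 ± 3.51 in KO DMEM and 47.1 ± 3.58 in WT DMEM. It fell in WT cells (-0.30 ± 0.07, adjusted p = 0.00155) and was not called in KO cells (-0.10 ± 0.07, adjusted p = 0.201; under upper-quartile scaling -0.20, adjusted p = 0.0179).

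Among the PDGF ligands, Pdgfd, which signals through PDGFRB, fell furthest. KO libraries held 23.7, 26.5, 27.0 and 22.1 CPM in DIAM, against 112, 90.4, 99.5 and 87.9 CPM in DMEM. WT libraries held 22.4, 20.2, 24.6 and 26.9 CPM in DIAM, against 113, 99.8, 105 and 102 CPM in DMEM. The highest DIAM library stayed far below the lowest DMEM library, with changes of -1.97 ± 0.10 in KO cells (adjusted p = 8.21e-11) and -2.16 ± 0.10 in WT cells (adjusted p = 3.96e-11). Its receptor gene Pdgfrb fell as well, averaging 562 ± 47.4 CPM in KO DIAM and 636 ± 15.8 in WT DIAM, against 998 ± 97.8 in KO DMEM and 1087 ± 87.3 in WT DMEM (mean ± SD, n = 4). Its log2 fold change was -0.83 ± 0.08 in KO cells (adjusted p = 1.57e-07) and -0.77 ± 0.08 in WT cells (adjusted p = 4.32e-07).

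Pdgfa, a PDGF ligand that acts through PDGFRA, had 23.7, 25.0, 28.2 and 24.5 CPM in KO DIAM libraries, against 40.4, 33.6, 46.0 and 32.0 CPM in KO DMEM libraries. The KO DIAM libraries were all lower, at -0.58 ± 0.11 (adjusted p = 0.000282). In WT cells the gene had 39.5, 45.1, 36.3 and 32.6 CPM in DIAM and 42.3, 40.6, 41.8 and 37.8 CPM in DMEM, overlapping ranges that gave no call (-0.08 ± 0.11, adjusted p = 0.556). Pdgfc, which signals through PDGFRA, had 24.9, 26.2, 31.9 and 36.1 CPM in KO DIAM libraries and 28.7, 32.8, 30.1 and 26.7 CPM in KO DMEM libraries. Those ranges overlapped and the gene was not called (0.01 ± 0.12, adjusted p = 0.954). WT libraries held 46.0, 50.3, 39.1 and 38.6 CPM in DIAM, against 37.2, 29.7, 31.2 and 30.3 CPM in DMEM, with every DIAM value higher (0.44 ± 0.12, adjusted p = 0.00514).

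Pdgfb, the ligand that recruits mural cells to vessels, had 17.9, 15.6, 15.5 and 13.3 CPM in WT DIAM libraries, against 9.10, 5.01, 7.47 and 7.62 CPM in WT DMEM libraries. All WT DIAM libraries were higher, by 1.09 ± 0.36 (adjusted p = 0.0171), a call lost without WT DMEM library 2 (adjusted p = 0.0528). KO libraries held 3.08, 8.55, 9.81 and 10.2 CPM in DIAM and 3.90, 12.8, 5.37 and 7.16 CPM in DMEM. These overlapped, with DIAM library 1 lowest and DMEM library 2 highest of the KO libraries, and the fit gave 0.12 ± 0.36 (adjusted p = 0.796). Without both of those libraries Pdgfb was called in KO cells too, at 0.80 (adjusted p = 0.00644). Leaving out the lowest DIAM and the highest DMEM value had to widen the difference, so that fit is no test of it.

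Of the 16 genes classed as FGF ligands by symbol 10 were tested, of which 6 fell and 1 rose in KO cells, where 30.8% of all genes fell and 29.8% rose. In WT cells 7 fell and 1 rose, where 27.5% of all genes fell and 27.6% rose. These counts include Fgf11, Fgf12 and Fgf13, whose products are not secreted. Fgf13 was the riser in KO cells, Fgf11 fell in both genotypes and Fgf12 fell in WT cells. Fgf9, a ligand of FGFR2 and FGFR3 in mesenchyme, had 0.414, 0.583, 0.959 and 0.676 CPM in KO DIAM libraries, against 5.19, 3.67, 3.47 and 4.07 CPM in KO DMEM libraries. Its WT values were 0.739, 1.07, 0.693 and 0.804 CPM in DIAM and 3.87, 4.00, 4.17 and 5.00 CPM in DMEM. DIAM libraries sat near or below 1 CPM and DMEM libraries between 3.47 and 5.19 CPM, for changes of -2.64 ± 0.23 in KO cells (adjusted p = 5.08e-08) and -2.36 ± 0.22 in WT cells (adjusted p = 1.75e-07).

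Fgf10, a paracrine ligand of the epithelial form of FGFR2, had 4.99, 3.52, 4.22 and 3.33 CPM in KO DIAM libraries, against 16.7, 9.26, 15.1 and 15.8 CPM in KO DMEM libraries. In WT cells it had 4.13, 2.98, 3.67 and 3.08 CPM in DIAM, against 10.9, 15.4, 14.6 and 14.5 CPM in DMEM. The media did not overlap, and Fgf10 changed by -1.82 ± 0.19 in KO cells (adjusted p = 3.79e-07) and -2.00 ± 0.19 in WT cells (adjusted p = 1.87e-07). Fgf7, keratinocyte growth factor, which uses the same receptor form, had 48.2, 49.0, 54.3 and 44.2 CPM in KO DIAM libraries, against 139, 102, 146 and 142 CPM in KO DMEM libraries, and 45.9, 35.5, 52.3 and 47.9 CPM in WT DIAM libraries, against 120, 132, 152 and 130 CPM in WT DMEM libraries. It too separated the media fully (-1.43 ± 0.13 on the log2 scale, adjusted p = 7.75e-08 in KO cells; -1.56 ± 0.13 on the log2 scale, adjusted p = 3.80e-08 in WT cells).

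Fgf2 and Fgf18 moved less. Fgf2, basic FGF, averaged 143 ± 5.88 CPM in KO DIAM and 126 ± 21.4 in WT DIAM, against 197 ± 36.0 in KO DMEM and 198 ± 22.6 in WT DMEM (mean ± SD, n = 4), with a log2 fold change of -0.46 (adjusted p = 0.00633) in KO cells and -0.65 (adjusted p = 0.000509) in WT cells. Fgf18, known for its action on cartilage and bone, averaged 30.2 ± 3.17 CPM in KO DIAM and 24.1 ± 4.76 in WT DIAM, against 42.4 ± 5.52 in KO DMEM and 43.3 ± 5.30 in WT DMEM. Its change was -0.49 in KO cells (adjusted p = 0.00537) and -0.85 in WT cells (adjusted p = 7.49e-05). Fgf1, acidic FGF, averaged 4.06 ± 0.906 CPM in KO DIAM, 3.42 ± 1.18 in WT DIAM, 4.95 ± 1.66 in KO DMEM and 4.71 ± 0.660 in WT DMEM. It was called in neither genotype (-0.29, adjusted p = 0.329 in KO cells; -0.46, adjusted p = 0.123 in WT cells), but was called in WT cells without WT DIAM library 4 (-0.72, adjusted p = 0.0181).

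Fgf5, known in mice for the control of hair length, had 25.6, 38.5, 17.7 and 15.6 CPM in WT DIAM libraries, against 1.99, 0.387, 2.12 and 0.990 CPM in WT DMEM libraries. WT DIAM libraries stood far above WT DMEM libraries (4.13 ± 0.77, adjusted p = 0.000385). KO libraries held 0.931, 4.74, 7.09 and 8.52 CPM in DIAM and 0.524, 5.02, 0.610 and 0.838 CPM in DMEM. Their ranges overlapped through DIAM library 1 and DMEM library 2, and the change was 1.61 ± 0.74 (adjusted p = 0.0735). Without KO DIAM library 1 it was 1.96 (adjusted p = 0.0215), without KO DMEM library 2 it was 3.0 (adjusted p = 0.00241), and without both it was 3.35 (adjusted p = 0.000137). As the lowest DIAM and the highest DMEM value of the KO cells, their removal had to widen the difference. Fgf5 ordered the libraries as the Schwann or glial sum did in 3 of the 4 groups.

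Fgf11, Fgf12 and Fgf13 encode intracellular FGF homologous factors, which bind voltage-gated sodium channels and are not secreted. Fgf13 had 3.83, 2.84, 3.07 and 3.72 CPM in KO DIAM libraries, against 2.38, 0.698, 1.47 and 1.08 CPM in KO DMEM libraries. It was higher in every KO DIAM library (1.26 ± 0.30, adjusted p = 0.00178). WT libraries held 2.63, 1.71, 3.13 and 2.17 CPM in DIAM and 1.09, 1.68, 1.86 and 1.81 CPM in DMEM, which overlapped (0.58 ± 0.30, adjusted p = 0.110). Fgf12 was near the filter, at 0.233, 0.851, 0.603 and 0.935 CPM in KO DIAM libraries and 0.890, 1.55, 1.51 and 0.958 CPM in KO DMEM libraries, and at 0.274, 0.166, 1.23 and 0.375 CPM in WT DIAM libraries and 1.74, 0.827, 1.74 and 0.916 CPM in WT DMEM libraries. The media overlapped in both genotypes, and the WT call (-1.35 ± 0.52, adjusted p = 0.0364) was lost without WT DIAM library 1, 2 or 4, without WT DMEM library 1 or 3 and in the fit on the WT libraries alone (adjusted p up to 0.0999). In KO cells it was not called (-0.90 ± 0.51, adjusted p = 0.137). Fgf11 averaged 3.97 ± 0.845 CPM in KO DIAM and 3.99 ± 0.481 in WT DIAM, against 5.64 ± 1.07 in KO DMEM and 5.36 ± 0.664 in WT DMEM (mean ± SD, n = 4). Its log2 fold change was -0.50 in KO cells (adjusted p = 0.0172) and -0.43 in WT cells (adjusted p = 0.0422). Without KO DIAM library 1 the KO value was no longer called (adjusted p = 0.0572), nor without KO DMEM library 2 (adjusted p = 0.0701), and without both it was -0.24 (adjusted p = 0.186). The WT call was lost without any one of WT DIAM libraries 1 and 3, WT DMEM libraries 1, 3 and 4, KO DIAM library 2 and KO DMEM library 4 (adjusted p up to 0.119).

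Of the FGF receptors, Fgfr1 averaged 314 ± 17.9 CPM in KO DIAM and 284 ± 13.3 in WT DIAM, against 237 ± 16.5 in KO DMEM and 234 ± 16.7 in WT DMEM (mean ± SD, n = 4). It rose in KO cells (0.40 ± 0.06, adjusted p = 4.64e-05) and in WT cells (0.28 ± 0.06, adjusted p = 0.00144). Fgfrl1, a receptor that lacks the kinase part, averaged 144 ± 12.6 CPM in KO DIAM, 110 ± 16.9 in WT DIAM, 106 ± 15 in KO DMEM and 122 ± 15.9 in WT DMEM. It rose in KO cells (0.44 ± 0.12, adjusted p = 0.00582) and was not called in WT cells (-0.14 ± 0.12, adjusted p = 0.342). Fgfr2, the receptor of FGF7 and FGF10 in its epithelial form, averaged 95.9 ± 6.09 CPM in KO DIAM, 76.8 ± 17.2 in WT DIAM, 91.8 ± 27.8 in KO DMEM and 99.1 ± 19.9 in WT DMEM. Fgfr3, a receptor known from cartilage growth, averaged 2.85 ± 0.559 CPM in KO DIAM, 2.12 ± 0.924 in WT DIAM, 2.23 ± 0.816 in KO DMEM and 1.34 ± 0.207 in WT DMEM. Neither was called between the media (Fgfr2 0.06 in KO cells and -0.37 in WT cells, adjusted p = 0.820 and 0.171; Fgfr3 0.36 and 0.65, adjusted p = 0.343 and 0.0990), and without WT DIAM library 2 Fgfr3 was called in WT cells (0.92, adjusted p = 0.00886).

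Hgf, hepatocyte growth factor, a ligand made by mesenchymal cells, fell while its receptor gene Met rose. Hgf had 10.7, 12.4, 11.9 and 11.3 CPM in KO DIAM libraries, against 24, 27.6, 24.7 and 32.5 CPM in KO DMEM libraries, and 10.2, 9.57, 13.2 and 12.7 CPM in WT DIAM libraries, against 28.2, 24.4, 33.7 and 26.3 CPM in WT DMEM libraries. Its media did not overlap (-1.23 ± 0.13 on the log2 scale, adjusted p = 3.89e-07 in KO cells; -1.30 ± 0.13 on the log2 scale, adjusted p = 2.61e-07 in WT cells). Met had 45.2, 38.7, 33.6 and 44.8 CPM in KO DIAM libraries, against 20.6, 14.4, 15 and 22.7 CPM in KO DMEM libraries, and 36.9, 31.5, 39.9 and 32.6 CPM in WT DIAM libraries, against 14.4, 15.5, 18.5 and 17.4 CPM in WT DMEM libraries. Every DIAM library was higher than every DMEM library (1.16 ± 0.14 on the log2 scale, adjusted p = 4.04e-06 in KO cells; 1.10 ± 0.14 on the log2 scale, adjusted p = 9.41e-06 in WT cells). A mesothelial marker list, which belongs to another cell type that can carry Met, summed to 648, 237, 228 and 738 CPM in KO DIAM libraries, 246, 137, 336 and 352 in WT DIAM libraries, 369, 104, 73.4 and 396 in KO DMEM libraries and 98.7, 111, 163 and 197 in WT DMEM libraries. In both media KO libraries 1 and 4 were the higher pair for that list and for Met. In WT cells the list was highest in library 4 and Met in library 3, in both media. Met shared the list's highest library in 1 of 4 groups, its lowest in 3 and its full order in 0. Egfr had its highest library where that list did in 4 of 4 groups, and Fgf11 and Fgfr1 in 3 of 4. Egfr shared the list's lowest library in 2 groups and its full order in 1. Fgfr1 shared the lowest library in 2 groups and the full order in 0, and Fgf11 shared each in 0. The list's part in the values of these members was not tested.

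Several members were high in the same libraries as the Schwann or glial list. Pdgfc and Erbb3 had their highest library where that list had its own in 4 of 4 groups, and Btc, Fgf5, Pdgfb and Fgf12 in 3 of 4. The full order of the 4 libraries was that of the list in 3 groups for Fgf5 and Pdgfc and in 2 groups for Btc, Erbb3, Fgf11 and Pdgfb, while 5 members had it in 1 group and 23 members in none. Each group has only 4 libraries, so these are descriptions. Erbb2, shown for contrast, lay between 22.8 and 29.5 CPM in all 16 libraries. The part of the list in the values of these members was not tested.

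**Figure D4:**
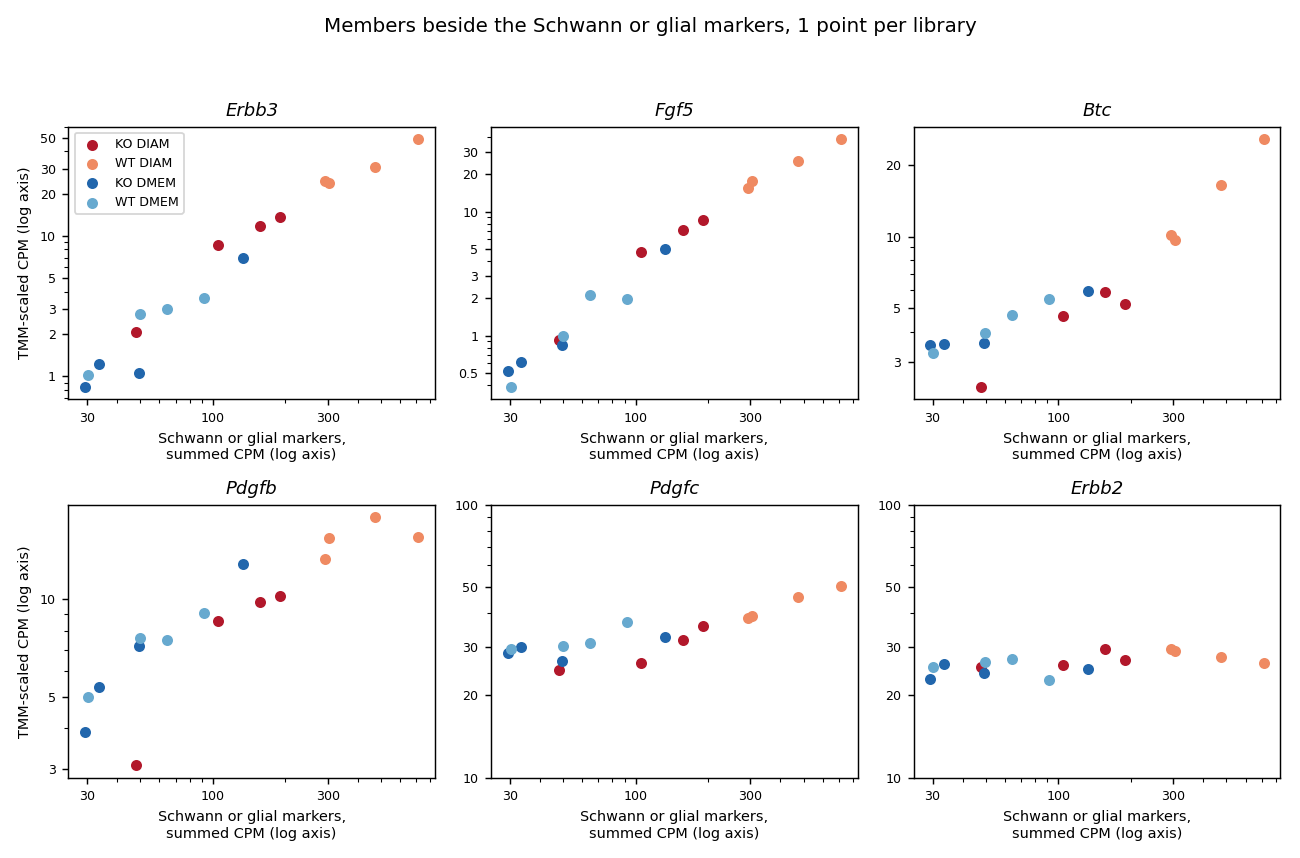
TMM-scaled CPM of Erbb3, Fgf5, Btc, Pdgfb, Pdgfc and Erbb2 (vertical, log axis) against the summed CPM of the Schwann or glial list (horizontal, log axis), 1 point per library, in KO DIAM, WT DIAM, KO DMEM and WT DMEM cells. Erbb3 and Fgf5 run from under 1 CPM at a list sum near 30 to 49.1 and 38.5 CPM at a sum of 715, while Erbb2 stays between 22.8 and 29.5 CPM.

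Between the genotypes in DIAM, 5 of the 34 tested members were called (14.7%), where 8.38% of all tested genes were called. Lower in KO cells were Hbegf, Btc, Pdgfa and Pdgfc, against 4.95% of all genes called lower, and higher in KO cells was Vegfd, against 3.43% called higher. Of the 5, 1 (Btc) differed by 1 or more on the log2 scale, where 1.17% of all genes were called with such a difference. KO and WT libraries in DIAM did not overlap for 10 of the 34 tested members, where 16.4% of all genes had no overlap. Log2 fold changes are here KO over WT. Hbegf had 7.22, 10.1, 9.09 and 10.1 CPM in KO DIAM libraries, against 18.4, 16.5, 15.6 and 12.5 CPM in WT DIAM libraries, with no overlap (-0.78 ± 0.13 on the log2 scale, adjusted p = 0.0113). Btc had 2.35, 4.67, 5.86 and 5.22 CPM in KO DIAM libraries, against 16.5, 25.6, 9.65 and 10.1 CPM in WT DIAM libraries, again without overlap (-1.77 ± 0.33 on the log2 scale, adjusted p = 0.0120). The lowest Btc value was that of KO DIAM library 1 and the highest that of WT DIAM library 2, the libraries at the 2 ends of the Schwann or glial sum in DIAM.

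Pdgfa had 23.7, 25.0, 28.2 and 24.5 CPM in KO DIAM libraries, against 39.5, 45.1, 36.3 and 32.6 CPM in WT DIAM libraries, so that all KO values were lower (-0.60 ± 0.11 on the log2 scale, adjusted p = 0.0120). Pdgfc had 24.9, 26.2, 31.9 and 36.1 CPM in KO DIAM libraries, against 46.0, 50.3, 39.1 and 38.6 CPM in WT DIAM libraries, also apart (-0.55 ± 0.12 on the log2 scale, adjusted p = 0.0164). Without KO DIAM library 1 its adjusted p was 0.0558, without KO DIAM library 2 it was 0.0637, without WT DIAM library 1 it was 0.0561 and without WT DIAM library 2 it was 0.0620. Vegfd had 1112, 1203, 1225 and 1028 CPM in KO DIAM libraries, against 864, 760, 986 and 1003 CPM in WT DIAM libraries, every KO library being higher (0.34 ± 0.10 on the log2 scale, adjusted p = 0.0411). That call was lost in each fit without KO DIAM library 1, 2 or 3, WT DIAM library 1 or 2 or WT DMEM library 3 or 4 (adjusted p up to 0.131). Without KO DIAM library 1 and KO DMEM library 2 together, Pdgfc (-0.47, adjusted p = 0.0549) and Vegfd (0.35, adjusted p = 0.0799) were not called, while Hbegf (-0.69, adjusted p = 0.0364), Btc (-1.56, adjusted p = 0.0384) and Pdgfa (-0.57, adjusted p = 0.0395) were.

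The Schwann or glial sum was 47.9 to 190 CPM in KO DIAM libraries and 293 to 715 in WT DIAM libraries, and 0 of the 7 tested genes of that list were called between the genotypes in DIAM (Sox10 at -1.97, adjusted p = 0.0839). The adipocyte sum was 3701 to 5349 CPM in KO DIAM libraries and 2310 to 3875 in WT DIAM libraries. The part of these lists in the 5 member results was not tested. Fitted on the DIAM libraries alone, none of the 5 was called (adjusted p = 0.0655 for Hbegf, Btc and Pdgfa, 0.0696 for Pdgfc and 0.0841 for Vegfd), with no gene called in that fit. Just outside the threshold in the 4-group fit lay Fgf5 (-2.20, adjusted p = 0.0631), Fgfrl1 (0.39, adjusted p = 0.0661), Erbb3 (-1.83, adjusted p = 0.0790), Vegfb (0.19, adjusted p = 0.0968) and Pdgfb (-0.98, adjusted p = 0.0988). Without KO DMEM library 2, Fgf5 (adjusted p = 0.0260), Erbb3 (adjusted p = 0.0277) and Fgfrl1 (adjusted p = 0.0447) were called. With KO DIAM library 1 left out as well, Fgf5 (-1.85, adjusted p = 0.0426) and Erbb3 (-1.50, adjusted p = 0.0415) were called and Fgfrl1 was not (adjusted p = 0.108). Fgfrl1 was also called without WT DIAM library 4 (adjusted p = 0.0481), and Nrg1 was called without KO DIAM library 3 (adjusted p = 0.0403, against 0.259 with it). For the same contrast the authors' deposited table gave an adjusted p under 0.05 to 10 members, the 5 above with Pgf, Fgf5, Pdgfb, Fgfrl1 and Erbb3. The share of all genes that it put under 0.05 is not given here.

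**Figure D5:**
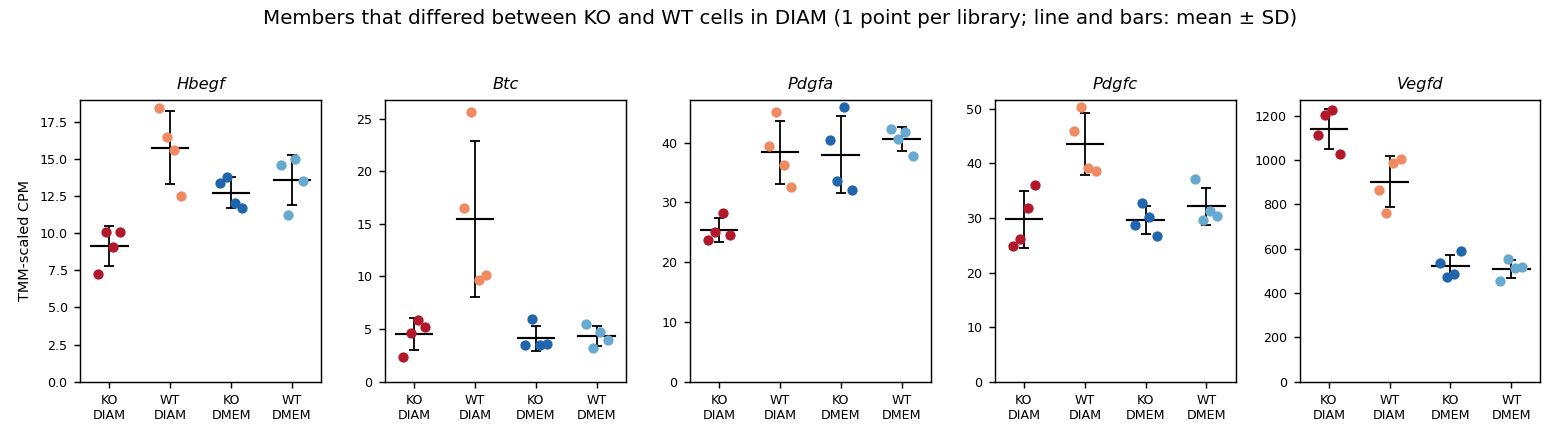
TMM-scaled CPM of Hbegf, Btc, Pdgfa, Pdgfc and Vegfd in KO DIAM, WT DIAM, KO DMEM and WT DMEM cells, as points for the 4 libraries with mean ± SD. In DIAM the KO libraries of Hbegf lie between 7.22 and 10.1 CPM and the WT libraries between 12.5 and 18.4 CPM, while the DMEM groups overlap.

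In DMEM no member was called between KO and WT cells by edgeR, and no gene of the 14217 was (0%). By DESeq2 and limma no member was called either, and 1 member, Fgfr3 (log2 fold change 0.73 ± 0.32), passed 0.05 in edgeR before adjustment, where 3.08% of all genes did. No member had KO and WT libraries in DMEM that did not overlap, where 1.60% of all genes did. The 5 members called in DIAM had log2 fold changes in DMEM of -0.09 ± 0.13 for Hbegf, -0.08 ± 0.33 for Btc, -0.10 ± 0.11 for Pdgfa, -0.12 ± 0.12 for Pdgfc and 0.03 ± 0.10 for Vegfd. The test of whether the response to DIAM differed between genotypes called 0 of the 34 members in edgeR, and no gene (0%), with 7 members at an unadjusted p under 0.05 against 15.9% of all genes. The smallest adjusted p-values there were 0.176 for Hbegf (-0.69 ± 0.18), 0.179 for Btc (-1.70 ± 0.46), 0.181 for Fgfrl1 (0.59 ± 0.18) and 0.185 for Pdgfa (-0.50 ± 0.16), where a negative value is a lower response in KO cells. DESeq2 called 2 members, Hbegf and Btc, as did the authors' deposited table (Hbegf -0.67, adjusted p = 0.0381; Btc -1.68, adjusted p = 0.0224). The shares of all genes called by DESeq2 and by that deposited table are not given here.

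The genes that work with the members were counted by list, with calls between DIAM and DMEM in KO cells and then in WT cells. Where a pair of values follows a gene of these lists, they are its log2 fold changes in KO cells and in WT cells. Over all tested genes 29.8% rose and 30.8% fell in KO cells, and 27.6% rose and 27.5% fell in WT cells. Of 19 tested FGF co-receptors and heparan sulfate enzymes, 4 rose and 12 fell in KO cells, and 5 rose and 12 fell in WT cells. Hs6st2, which adds sulfate to heparan sulfate, averaged 24.3 CPM in KO DIAM and 22.1 in WT DIAM, against 163 in KO DMEM and 170 in WT DMEM (log2 fold change -2.75 in KO cells and -2.94 in WT cells). Sulf2, which removes such sulfate outside the cell, rose (1.26 and 1.16), and Ext1, which builds the heparan sulfate chain, fell (-1.21 and -1.21). Klb, the co-receptor of FGF21, chosen here after its values were seen, had 12 CPM in KO DIAM and 6.86 in WT DIAM, against 0.159 in KO DMEM and 0.182 in WT DMEM (6.18 ± 0.42 and 5.21 ± 0.41, adjusted p = 4.29e-09 and 2.96e-08), while its ligand Fgf21 stayed below the filter.

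Of 7 other VEGF and PDGF receptors and co-receptors, 3 rose and 2 fell in KO cells, and 4 rose and 2 fell in WT cells. Kdr, the main VEGFA receptor and an endothelial marker, averaged 12.3 CPM in KO DIAM and 10.6 in WT DIAM, against 1.89 in KO DMEM and 2.15 in WT DMEM (2.70 in KO cells and 2.29 in WT cells). The endothelial list summed to 83.9 to 152 CPM in KO DIAM libraries, 100 to 143 in WT DIAM libraries, 72.2 to 97.7 in KO DMEM libraries and 68.9 to 91.5 in WT DMEM libraries. Its genes did not all move the same way. Of 12, 5 were called higher in DIAM and 2 lower (Erg and Vwf) in KO cells. In WT cells 4 were called higher and 1 lower (Erg). Emcn alone reached up to 44.6 CPM in a library. The part of the list in the Kdr result was not tested. Nrp1, a co-receptor of VEGFA, rose (1.18 and 0.87), and Nrp2, a co-receptor of VEGFC, fell (-1.0 and -0.83). Flt1, the VEGF receptor that binds PGF and VEGFB, was lower in KO than in WT cells in DIAM (-0.96, adjusted p = 0.0156).

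Of 19 tested feedback inhibitors, 9 rose and 7 fell in KO cells, and 8 rose and 7 fell in WT cells. Errfi1, which binds and inhibits EGFR, averaged 594 CPM in KO DIAM and 506 in WT DIAM, against 38.9 in KO DMEM and 39.6 in WT DMEM (3.93 ± 0.12, adjusted p = 2.89e-13 in KO cells; 3.67 ± 0.12, adjusted p = 5.34e-13 in WT cells). Dusp1, a phosphatase of MAP kinases, rose (1.68 and 1.35), and Spry1, an inhibitor of FGF signalling, fell (-1.94 and -1.61). Over all tested genes, 60.7% were called in KO cells and 55.1% in WT cells. Of 19 adaptors, 8 rose and 6 fell in KO cells, and 6 rose and 6 fell in WT cells, among them Cblb, a ubiquitin ligase of receptors (0.75 and 0.90). Of 16 genes of the RAS and ERK cascade, 5 rose and 7 fell in KO cells, and 4 rose and 4 fell in WT cells. Of 14 transcription factors that act after ERK, 7 rose and 3 fell in KO cells, and 6 rose and 5 fell in WT cells, with Fosl1 at 2.09 and 2.22 and Myc at 1.30 and 1.42. Ets1 had the smallest p of these factors between media and rose in both genotypes. It was called lower in KO than in WT cells in DIAM. Of 12 ligand-processing proteases and their controls, 1 rose and 6 fell in KO cells, and 2 rose and 3 fell in WT cells. The riser in KO cells was Rhbdf1, an inactive rhomboid and not a protease, and those in WT cells were Rhbdf1 and the protease gene Adam9. Egf, tested as the remaining EGF ligand, was called in neither genotype (0.27 and 0.50). Between the genotypes in DIAM, the calls higher and lower in KO cells numbered 0 and 4 for the co-receptor list, 0 and 2 for the other receptors, 1 and 0 for the adaptors, 1 and 2 for the cascade, 1 and 1 for the feedback inhibitors, 0 and 2 for the transcription factors and 0 and 1 (Rhbdf1) for the proteases and their controls, where 3.43% of all genes were called higher and 4.95% lower.

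The 8 members below the filter were Erbb4, Fgf8, Fgf14, Fgf16, Fgf21, Fgf22, Fgf23 and Nrg2, and no fold change was computed for them. Erbb4, another neuregulin receptor, had 1 to 111 counts a library, at most 2.82 CPM, in KO DIAM library 4. Nrg2, a neuregulin ligand, had 5 to 103 counts and reached 1 CPM in 3 libraries. Counts were 1 to 27 for Fgf14, 6 to 40 for Fgf16, 1 to 19 for Fgf21 and 3 to 14 for Fgf22. Fgf23, the phosphate hormone of bone, had 0 to 10 counts and was at 0 in WT DIAM library 4, which allows a level of up to 0.079 CPM (3 counts). Fgf8, a ligand of embryonic development, had 0 to 8 counts and was at 0 in KO DIAM library 3 and WT DIAM library 1, which allows up to 0.0801 and 0.0803 CPM. These limits cover counting error alone. The library kit did not mark strand, so reads of overlapping genes on opposite strands cannot be told apart.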

How the data were processed

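RNA was sequenced from 16 libraries, 4 a group, made with an unstranded kit per the labels' protocols. The submitters' processing notes name Salmon 1.9.0, DESeq2 1.46.0, R 4.4.2, FastQC and the genome build GRCm39 (mm39). The labels call the deposited per-library columns TPM, but they sum to 37221192 to 47626331 a library and 43.0% of 27906 low values lie within 0.05 of a whole number, so they were treated as the authors' estimated counts and rounded. The authors' deposited table also gives log2 fold changes and adjusted p-values, which are quoted only where named.

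Genes with at least 1 CPM in at least 4 libraries were kept (14217 genes, 99.83% or more of each library's counts). One edgeR 4.0.16 quasi-likelihood model over the 4 groups (TMM scaling, R 4.3.3, 12 residual degrees of freedom) gave all comparisons and their interaction, with Benjamini-Hochberg adjustment over all genes, and was tested on simulated data. Alternatives were DESeq2 1.42.0, limma 3.58.1 on log2(CPM + 1) and log2(CPM + 0.1), other scalings and filters, a replicate block, fits on the compared groups alone and leaving out libraries. Promoters are RefSeq windows on GRCm38.p6. All samples carry 1 batch label, so no split by batch was possible. The series text speaks of 4 biological replicates and the library protocol of triplicates.

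Members, gene lists and tests were chosen with earlier results of these data known. Every member past the filter is named. Values of each library are given for members whose called difference between media was 1 or more on the log2 scale, in either direction, and for those called between genotypes. The genes named from the pathway lists, apart from Klb, were among the 3 of smallest p of their list in a comparison. Not every such gene is named, and none is named from the RAS and ERK cascade.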

Additional observations from a re-analysis of the deposited data

Results flagged for a closer look

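Within a group of 4 libraries, 1 library lay far from the other 3 for 7 of the 136 sets of a member in a group, where chance flags about 1 set in 20. KO DMEM library 2 stood high for Btc at 5.92 CPM (the other 3 at 3.51 to 3.57), for Erbb3 at 6.98 CPM (0.838 to 1.22) and for Fgf5 at 5.02 CPM (0.524 to 0.838). The same library had the highest Schwann or glial sum of its group, 133 CPM against 29.4 to 49.3. It also had the highest leukocyte sum, 2586 CPM against 1150 to 1830. The part of these lists in the 3 values was not tested. Nrg1 was low in KO DMEM library 4 at 14.1 CPM (15.3 to 15.4), and Pgf was low in WT DIAM library 4 at 16 CPM (17.3 to 17.4). Vegfb was low in KO DIAM library 4 at 41.1 CPM (44.2 to 44.6) and high in WT DIAM library 2 at 42.7 CPM (36.5 to 36.8).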

How the results depend on the processing

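The medium calls kept their direction and their side of the threshold under every alternative run for 22 of 24 members in KO cells and 23 of 26 in WT cells; the KO against WT calls in DIAM did so for 0 of 5. With each library left out in turn, the members called numbered 23 to 24 between media in KO cells, 24 to 27 in WT cells, 3 to 8 between genotypes in DIAM, 0 to 0 in DMEM and 0 to 0 in the interaction. The genotype count in DIAM of 5 fell to 3 without KO DIAM library 1 or 2 or WT DIAM library 1 or 2, and was 8 without KO DMEM library 2. It was 8 with DESeq2, 10 by the authors' deposited adjusted p and 0 in the fit on the DIAM libraries alone; the interaction count of 0 was 2 with DESeq2 and 2 in the authors' deposited table. The causes were not tested. The counts of members in these fits are given without the share of all genes called in the same fit. They do not show whether members were called more often than other genes. Without KO DIAM library 1 and KO DMEM library 2 together, an alternative chosen after seeing the data, the counts were 25, 26, 5, 0 and 0. These were not the same members: in KO cells the medium call of Fgf11 was lost and those of Fgf5 and Pdgfb were gained, and between genotypes in DIAM Pdgfc and Vegfd were lost and Erbb3 and Fgf5 gained. The KO medium value of Pdgfb (0.12) turned to -0.00 without KO DIAM library 3, -0.03 without KO DIAM library 4, -0.09 without KO DMEM library 1 and -0.01 without KO DMEM library 3; it was not called in any of these fits, and over all fits that leave out 1 library it lay between -0.09 and 0.53.

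No label says what the replicate numbers mark, and they were not taken to pair the libraries, since the deviations of same-numbered libraries did not all correlate above 0.1 (-0.22 to 0.38 over 24 pairs, 13 of them over 0.1; within a genotype across media -0.09 to 0.32 over 8 pairs, 6 of them over 0.1). As a hint of pairing from the data, 10 of 16 libraries correlated best with their own number. Pairing was therefore not shown to be absent. The block used next ties a number across both genotypes, so pairing of the media within each genotype was not tested. With the replicate number as a block, 25 and 27 members were called between media in KO and WT cells, 5 between genotypes in DIAM, 0 in DMEM and 0 in the interaction. The shares of all genes called in that fit are not given here. Erbb2 was then called between media in both genotypes (adjusted p = 0.0435 in KO cells and 0.0302 in WT cells). Depth limits the members near the filter, such as Fgf12.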
